A study of Mus musculus with 1012 samples.

Results

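The cells described here were unstimulated RAW-G9 macrophages whose whole content was lysed and sequenced, 95, 16 and 46 of them in 3 batches, out of 1012 single-cell libraries in the series. They were taken by their labels alone, as every library made by scRNA-seq from the line Raw264.7_G9 without treatment, and are called RAW_Mock. RAW264.7 is a mouse line that grows like a tumour and behaves in culture like a macrophage. RAW-G9 is 1 clone of it, which carries mCherry under the control of a Tnf promoter and a fusion of GFP to relA, so that the values speak for this clone and not for the line or for primary macrophages. The labels call the batches scRNA (95 cells), 8_8 (16 cells) and 9_1 (46 cells).

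The series set cytoplasm drawn from living cells (Live-seq) beside whole cells, and its whole cells, of 5 states, were sequenced as a reference. Next to RAW_Mock, which received PBS, these were RAW-G9 cells given lipopolysaccharide (RAW_LPS, the same clone, 88, 15 and 46 cells in batches scRNA, 8_8 and 9_1), immortalized brown preadipocytes without treatment (IBA, 93, 15 and 45 cells, a line from brown fat of young male C57BL6/J mice), and primary adipose stem and progenitor cells (ASPC) from subcutaneous fat of female C57BL/6J mice aged 7 to 10 weeks. The ASPCs were either untreated (ASPC_Pre, 60 cells, none in batch scRNA) or given an adipogenic cocktail (ASPC_Post, 35 cells, batch 9_1). The labels used here give neither the dose of lipopolysaccharide nor the time for which the whole cells were exposed.

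Macrophages take up and digest particles in lysosomes, sense microbes through Toll-like and Fc receptors, and produce superoxide with the NADPH oxidase. In the resting state the transcription factor NF-kB is held in the cytoplasm by inhibitor proteins, and Toll-like receptor 4 with its partners Cd14 and Ly96 releases it once lipopolysaccharide is bound, which switches on cytokine genes such as Tnf. Survival of these cells depends on the receptor for macrophage colony-stimulating factor, the product of Csf1r, and their identity on the transcription factor PU.1, the product of Spi1.

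A median of 433219 counts was assigned to genes in a RAW_Mock cell, with batch medians of 410878 (scRNA), 367040.5 (8_8) and 894100 (9_1) and a range of 41030 to 1348804. These are read counts without molecular identifiers, so that reads are not independent molecules. The binomial intervals given below rest on numbers of cells. They cover the sampling of cells only, and not the spread between batches. The median number of genes with a count was 7927, 7302.5 and 8920 in the 3 batches. After each cell had been thinned to 100000 counts these medians were 7003, 6437 and 7250. Mitochondrial genes took a median of 9.19%, 5.06% and 9.41% of the counts, and the 20 genes that the study removed because they appear in empty wells took 20%, 18.4% and 30%. All levels are without those 20 genes and without 89 genes of ribosomal proteins. They are given as CPM, the usual scaling of counts to a common library total, for a batch from the summed counts of its cells. No 2 libraries held identical values.

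Of these cells, 11 stood apart from the rest of their batch. In batch scRNA 10 cells combined many counts with few genes, 772616 to 1348804 counts and 4859 to 5771 genes, where the other 85 cells of the batch had 250460 to 730347 counts and 7212 to 9566 genes. They gave 24.5% of the summed counts of that batch. By the same bounds, over 750000 counts and under 6500 genes, 2 RAW_LPS and 6 IBA cells of batch scRNA belonged to this kind. Of the 10 RAW_Mock cells, 4 held between 1592 and 3544 CPM of Il1b, an inflammatory cytokine that only 3 other RAW_Mock cells showed at all, at 7.37 CPM or less. These 4 stood out in Tnf, Ccl3 and mCherry too and are described at the end, while the other 6 had no count of Il1b. In batch 9_1 a single cell was shallow, with 41030 counts, and made up 0.11% of the summed counts of its batch. Several levels of batch scRNA are also given without the 4 cells, and counts of called genes also without all cells of many counts and few genes.

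The 6 genes given as markers of these cells were all present. Lyz2, which encodes the lysozyme of macrophages, was at 3161, 1927 and 3769 CPM in batches scRNA, 8_8 and 9_1. Csf1r stood at 2142, 1453 and 1274 CPM, the lysosomal membrane gene Laptm5 at 997.6, 1294 and 1029 CPM, and Cd68, a glycoprotein of late endosomes, at 602.5, 761.2 and 732.8 CPM. Ncf1, a cytosolic subunit of the NADPH oxidase, was at 619.6 CPM in batch scRNA and 410.4 CPM in batch 9_1. Csf1r, Laptm5, Cd68 and Ncf1 had counts in all cells, and Lyz2 in all but 1 cell of batch scRNA. Corrected for the exon length of each gene, the mean over the 3 batches was highest for Lyz2 (2243 CPM per kb), followed by Cd68 (555.9), Laptm5 (292.2), Csf1r (281.1) and Ncf1 (131.0). Laptm5 and Csf1r, neighbours in this order, did not differ beyond their spread between batches (42.96 and 79.35 CPM per kb, SD).

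The sixth marker, Il21r, the receptor of interleukin 21, behaved differently. It lies on GRCm38 at chr7:125603429-125633570 and reached only 26.07, 29.34 and 17.41 CPM (7.30 CPM per kb). Its counts came from 71 cells, which were 48.4% of batch scRNA, 37.5% of batch 8_8 and 41.3% of batch 9_1, and the cells with counts reached 221.6, 258.3 and 236.9 CPM. None of the other whole cells had a count of Il21r, the RAW_LPS cells included, which allows a share of up to 0.756% of all of them and 2.01% of the RAW_LPS cells with a count. Against a floor of 3 counts the summed level was at least 1347-fold higher in RAW_Mock than in the other whole cells and at least 477.8-fold higher than in RAW_LPS. In edgeR's quasi-likelihood test across batch sums, the difference from RAW_LPS had an adjusted p of 0.0525 and was not called. Its adjusted p ranged from 0.00646 to 0.207 over 12 alternative settings, of which 5 called it.

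**Figure D1:**
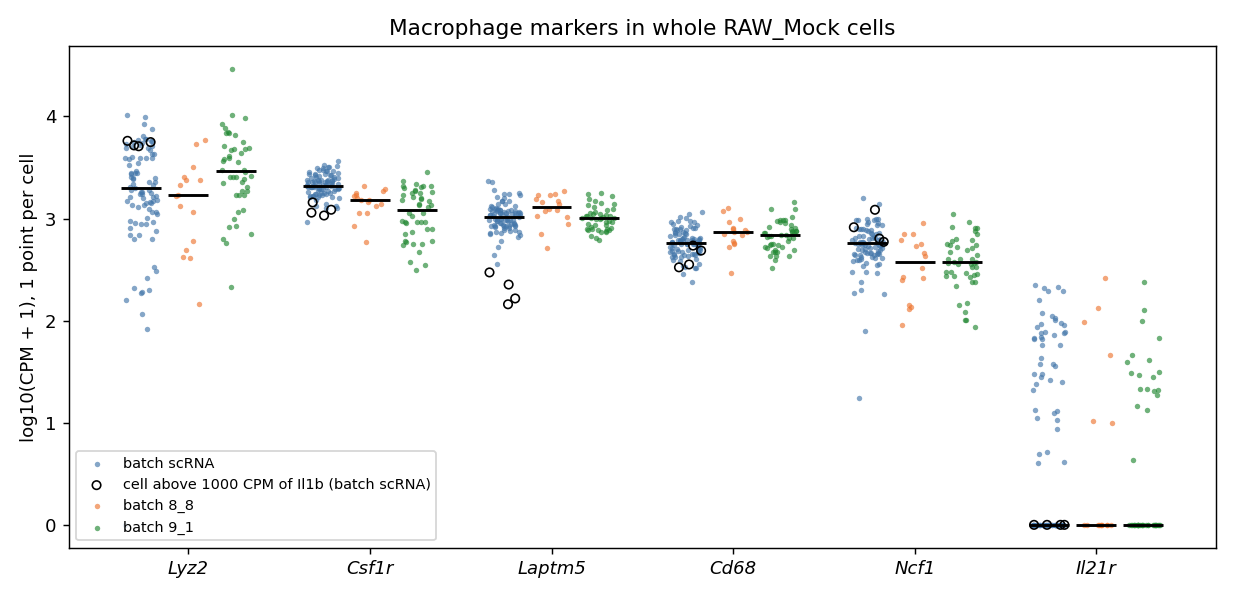
Each point is 1 RAW_Mock cell, coloured by batch, with the log10 of its CPM plus 1 on the vertical axis and the 6 marker genes along the horizontal axis. Horizontal bars are batch medians and open circles are the 4 cells of high Il1b. Cd68 and Csf1r form narrow bands. In batch scRNA Laptm5 spreads from 143.8 to 2327 CPM and Lyz2 from 0 to 10410 CPM. The median of Il21r is 0 in every batch.

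The same genes were read in IBA cells, a line outside the macrophage lineage. Cd68 had counts in 20.4%, 33.3% and 31.1% of IBA cells in batches scRNA, 8_8 and 9_1, Csf1r in 16.1%, 6.7% and 17.8%, and Lyz2 in 10.8%, 20% and 13.3%. Laptm5 and Ncf1 had counts in at most 4.4% and 6.7% of the IBA cells of a batch, and Il21r in none. Depth was not lower in IBA, with a median of 372381 counts after the removal of genes against 332312 in RAW_Mock, so that the share of RAW_Mock cells with counts of each marker was above this background.

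Each RAW_Mock batch sum was then compared with the sums of the other 4 whole-cell states, with a term for batch. A gene was called at a Benjamini-Hochberg adjusted p under 0.05 and a log2 fold change beyond 1 in either direction. RAW_Mock has 3 sums, and p-values rest on the spread between sums that is left after the state and batch terms, estimated over all states. Of 13562 genes tested, 1669 (12.3%) were higher in RAW_Mock and 1639 (12.1%) lower, and the median log2 fold change of all genes was -0.09. DESeq2 split its calls into 1657 higher and 2805 lower genes. Without batch scRNA 2196 genes were called, and without batch 9_1 1720. Without the cells of many counts and few genes the calls in either direction went from 24.4% to 25% of the genes. All 6 markers were higher, and the smallest fold among the 5 with counts elsewhere was that of Csf1r, with a log2 fold change of 5.25 ± 0.98 (SE, n = 3 batches) and an adjusted p of 0.00369 by edgeR. Lyz2 lost its call in 1 of 12 alternatives. Since RAW_LPS cells are part of the comparison group, a gene that both RAW states express has a smaller fold here than against the other cell types alone.

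Among genes of macrophage identity, 14 of 24 listed were higher than in the other states, none was lower and 7 could not be tested, beside 12.3% and 12.1% of all genes. The list had a median log2 fold change of 7.65. The highest of them per length was Lyz2. The adaptor genes Fcer1g and Tyrobp, which carry the signal of Fc and related receptors, were at 927.7 ± 460.5 and 681.7 ± 286.9 CPM per kb (SD, n = 3), and the protease Ctss at 505.7 ± 28.97, so that the order of these genes was not resolved beyond the spread between batches. Fcer1g and Tyrobp were lowest in batch scRNA (441.7 and 261.5 CPM) and highest in batch 9_1 (1240 and 644.3 CPM). Spi1 was at 483.2, 460.2 and 491.1 CPM, nearly the same level in each batch (478.1 ± 16.06, SD, n = 3). The fractalkine receptor gene Cx3cr1 stood at 714.6, 661.6 and 653.2 CPM.

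Several classical macrophage genes were close to absent. Mrc1, the mannose receptor, and Cd36, a scavenger receptor, had no count in any of the cells. Itgam, the integrin known as Cd11b, was at 1.75, 0.69 and 0 CPM, and Adgre1, the F4/80 antigen, at 13.23, 0 and 1.53 CPM. Almost all of the Adgre1 level of batch scRNA came from the cells of high Il1b, since it was 0.46 CPM without them. Cebpa, a transcription factor of myeloid cells, stayed at 1.16 CPM or less in every batch. Of 8 genes of alternative activation 4 had no count, among them Chil3, Cd163 and Clec10a. That list summed to 115.2, 7.16 and 7.16 CPM in the 3 batches and to 10.1 CPM in batch scRNA without the cells of high Il1b, and its median cell was at 0 in every batch.

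Lists for other cell types were low. The 10 mesenchymal genes summed to 3.79, 4.16 and 0.35 CPM per batch, and 8 of them were lower in RAW_Mock than in the other states, beside 12.1% of all genes. Lymphocyte genes summed to 2.71, 1.16 and 3.05 CPM, with Cd3e, Cd79b and Pax5 at 0. Granulocyte and mast cell genes summed to at most 0.47 CPM, and epithelial and endothelial genes to at most 0.90 CPM. Of the dendritic cell list, 16.1, 23.3 and 8.26 CPM were found, with Flt3, Xcr1, Clec9a and Batf3 at 0. The adipogenic list summed to 1156, 320.2 and 611.7 CPM, of which Lpl, a lipase that macrophages also make, gave 1156 CPM in batch scRNA and 611.7 CPM in batch 9_1, while Pparg, Fabp4, Adipoq and Plin1 were at 0.

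A transcript of a B cell gene stood against this pattern. Ighm, the heavy chain of immunoglobulin M, was at 297.3, 291.3 and 163.3 CPM in RAW_Mock, and its counts came from 86.3%, 75.0% and 43.5% of the cells. RAW_LPS cells had 367.3, 329.8 and 201.9 CPM. Against the other whole-cell states the log2 fold change was 6.55 ± 0.29 (SE, n = 3 batches). The B cell genes Cd79b and Pax5 were without a count in the same cells.

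By the mean over batches, the predicted gene Gm26917 had the most abundant RNA with 23710 ± 11220 CPM (SD, n = 3), and it differed widely between batches, at 36600, 18410 and 16120 CPM. The ferritin heavy chain gene Fth1 followed with 12070 ± 5884 CPM, then the translation factor Eef1a1 with 7960 ± 1614 and the actin gene Actb with 7351 ± 2482. The mitochondrial genes mt-Co1, mt-Nd1 and mt-Cytb followed at 5909, 5394 and 4574 CPM. Levels that hardly moved between batches included those of the ATP synthase gene Atp5b (2723 ± 193.7 CPM), the nucleolar genes Ncl (3524 ± 220.1) and Npm1 (3227 ± 246.1), and Gapdh (2837 ± 78.86). Macrophage genes among the 20 highest were Cst3, an inhibitor of cathepsins (3753 ± 1220), the protease Ctsb (3112 ± 590.1) and Lyz2 (2952 ± 938.7). The carbonic anhydrase gene Car2 (3129 ± 365.3) was also among them.

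The distribution was long-tailed. In the kept table of 30343 genes, 9071 had no count in any RAW_Mock cell, 13165 were above 0 in every batch sum, 10197 reached 1 CPM in every batch sum, 1761 reached 100 CPM and 53 reached 1000 CPM. The 100 highest genes took 23.4%, 21% and 22.3% of the kept counts.

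Of the genes called higher than in the other states, the 10 with the largest rise were Il21r, Asb10, Ncf1, Ctss, Laptm5, Pik3cg, Mycn, Tyrobp, Btk and Ly86. Their log2 fold changes ran from 9.85 to 11.59, and with levels near 0 in most sums of IBA and ASPC cells these fitted values depend on the prior count. Mycn, a proto-oncogene of the Myc family that is usually off in differentiated cells, was at 2957, 2606 and 2464 CPM. It was detected at 522.9 CPM or more in every cell and also in RAW_LPS (1492, 1445 and 1398 CPM). Pik3cg, the catalytic subunit of phosphoinositide 3-kinase gamma, was at 218.7, 147.8 and 173.1 CPM, and the tyrosine kinase gene Btk at 231.1 ± 24.35 CPM (SD, n = 3).

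The 10 called genes of the largest fall were Col12a1, Pdpn, Lrrc32, Fbln5, Fbn1, Prelp, Parva, Htra1, Dclk1 and Vdr. Col12a1, Fbln5, Fbn1 and Prelp belong to the extracellular matrix, and Pdpn is a surface glycoprotein of fibroblasts. None of the 10 had a count in any RAW_Mock cell. Against the floor of 3 counts, RAW_Mock was at least 7406-fold lower than the other whole cells in Pdpn, at least 5778-fold lower in Col12a1 and at least 906.2-fold lower in Htra1, the least of the 10.

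All 7 listed genes of the NADPH oxidase were found in every batch, and 6 were higher than in the other states, beside 12.3% of all genes. The membrane subunit Cybb was at 2047, 666.7 and 824.8 CPM and its partner Cyba at 375.3, 430.4 and 492.5 CPM. The cytosolic subunit Ncf4 was at 202.9, 284.6 and 218.8 CPM. Cybb was highest in batch scRNA, also without the cells of high Il1b (1722 CPM). The GTPase gene Rac1, which all cell types use, had a log2 fold change of -0.77 and was not called.

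Of 22 genes of lysosomes and cathepsins, 11 of the 21 tested were higher and 1 was lower, beside 12.3% and 12.1% of all genes. The list summed to 15820, 16950 and 20240 CPM. Cathepsin genes that were higher included Ctss, Ctsc (log2 fold change 5.09), Ctsb (1.55), Ctsz (1.35), Ctsd (1.26) and Ctsa (1.12). The osteoclast protease Ctsk was at 0, 0 and 1.10 CPM and was the lower one. RAW264.7 cells can form osteoclasts, and of 6 osteoclast-related genes tested 1 was lower, which was Ctsk, and 3 were higher, beside 12.1% and 12.3% of all genes, namely Dcstamp (143.8, 103.7 and 78.5 CPM), a fusion protein gene, Tnfrsf11a (46.93, 40.89 and 31.97 CPM), the receptor RANK, and the transcription factor gene Nfatc1 (122.6, 240 and 60.73 CPM). Of 17 genes of Fc receptors and their kinases, 12 of the 14 tested were higher and none lower, beside 12.3% and 12.1% of all genes.

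Of the 19 listed genes of Toll-like receptors and their adaptors, 18 were tested, 6 were higher and 1 was lower, beside 12.3% and 12.1% of all genes. Cd14, which hands lipopolysaccharide to its receptor, was at 1213, 447.7 and 1401 CPM, and at 745.2 CPM in batch scRNA without the cells of high Il1b. Tlr4 itself was at 81.48, 15.02 and 47.70 CPM, and its partner Ly96 at 6.41, 2.77 and 7.71 CPM. Neither Tlr4 nor Ly96 was called against the other states, with log2 fold changes of 0.55 and -0.68. Tlr2, a receptor of bacterial lipoproteins, was at 319.4 ± 23.83 CPM (SD, n = 3), and the receptors of nucleic acids Tlr7, Tlr13 and Tlr9 were at means of 108.6, 37.57 and 4.59 CPM. Cd14, Tlr2, Tlr7, Tlr9, Tlr13 and the adaptor gene Ticam2 were the higher genes, and the adaptor gene Ticam1 was lower, at 26.86, 2.54 and 9.98 CPM, of which 9.68 CPM were left in batch scRNA without the cells of high Il1b.

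RAW_Mock was compared with RAW_LPS in the same fit, which asks what marks the unstimulated state of the clone. Of 13562 genes tested, 44 (0.324%) were higher and 129 (0.951%) lower in RAW_Mock, 1.28% in either direction, and the median log2 fold change was -0.00. The count depends on the batches and on the cells that stand apart. As a share of those 13562 genes, 2.23% were called without the cells of high Il1b, with all 173 genes called again, and 2.16% without all cells of many counts and few genes. Without batch 9_1 32 genes were called, without batch scRNA 4 and without batch 8_8 0 by edgeR, and in that last fit 1981 genes had an unadjusted p under 0.05. With all batches DESeq2 called 2.19% higher and 3.07% lower, and edgeR without the batch term called 35 genes in all. The genes named below kept their direction in all 12 alternatives, and each was called in 6 to 10 of them.

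The largest falls in RAW_Mock against RAW_LPS were Tslp, Mx2, Nr4a3, Irak3, Tgm2, Stx11, Cmpk2, Fas, Cd40 and Il15. Cd40, a receptor for help from T cells, was at 10.34, 9.24 and 2.70 CPM in RAW_Mock and at 375.4, 300.3 and 224.2 CPM in RAW_LPS, and without the cells of high Il1b it was at 1.90 CPM in batch scRNA. Its log2 fold change was -5.61 ± 0.69 (SE, n = 3 batches) with an adjusted p of 0.0117 by edgeR. The death receptor gene Fas was at 20.39, 0.23 and 4.19 CPM against 235.2, 172.4 and 174.1 CPM, and at 1.73 CPM in batch scRNA without those cells. Nr4a3, an immediate early nuclear receptor, and Irak3, an inhibitor of Toll-like receptor signalling, were at 0.20 CPM or less in every RAW_Mock batch. In each of these genes the highest RAW_Mock batch lay below the lowest RAW_LPS batch.

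The genes higher in RAW_Mock were fewer. Most of the 10 largest rises were smaller than the fall of Il15, a log2 fold change of -5.02. Exoc3l2, a gene related to the exocyst, was at 36.18, 65.60 and 33.77 CPM against 0.78, 0.24 and 0.27 CPM in RAW_LPS, a log2 fold change of 6.65 ± 1.00 (SE, n = 3 batches; adjusted p = 0.0212 by edgeR). Id2, an inhibitor of transcription factors of the helix-loop-helix class, was at 55.79, 67.45 and 65.23 CPM against 2.03, 15.98 and 2.68 CPM. Dgkg, a diacylglycerol kinase, and Pwwp2b, a chromatin protein, had log2 fold changes of 5.62 each. Rasa3, which turns off Ras, was higher with 3.09, and Cpt1a, the enzyme that carries fatty acids into mitochondria, with 2.94. Mical1, 2900026A02Rik, Nt5dc2 and Pitpnc1 completed the 10. In the cell cycle lists 1 gene was called, the DNA repair gene Ung, beside 0.324% of all genes higher and 0.951% lower. Ung was at 79.97, 84.55 and 84.68 CPM against 15.08, 8.23 and 19.96 CPM in RAW_LPS.

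Of 13 genes of NF-kB subunits and inhibitors, 7 were lower in RAW_Mock than in RAW_LPS and none was higher, beside 0.951% and 0.324% of all genes. The list had a median log2 fold change of -1.77, beside -0.00 for all genes. The lower ones were the subunits Nfkb1 (-1.73), Nfkb2 (-2.48) and Relb (-2.15) and the inhibitors Nfkbia (-2.25), Nfkbib (-1.77), Nfkbie (-2.82) and Nfkbiz (-3.32). Nfkbia, the inhibitor IkB alpha, was at 547.7, 202.4 and 389.4 CPM in RAW_Mock (386.3 CPM in batch scRNA without the cells of high Il1b) and at 1606, 1190 and 1930 CPM in RAW_LPS. Rela, the subunit whose fusion to GFP the clone carries, was at 180.2, 105.8 and 88.24 CPM, with a log2 fold change of -1.03 and no call.

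Of 20 listed cytokine and chemokine genes, 4 had a mean of at least 10 CPM in every batch of the resting cells, and 3 had no count. Of 17 tested, 4 were higher than in the other states, namely Tnf, Ccl3, Ccl4 and Ccl9, and 4 were lower, Il6, Il1rn, Ccl2 and Ccl7, all at 0.69 CPM or less, beside 12.3% and 12.1% of all genes. Tnf was at 335.5, 79.93 and 223.9 CPM, and at 168.2 CPM in batch scRNA without the cells of high Il1b. The chemokine gene Ccl3 was at 1074 CPM in batch scRNA and 433.8 CPM in batch 9_1, and at 290 CPM in batch scRNA without them, and its median cell in batch 8_8 held 87.4 CPM. Thus the order of the batches in Tnf and Ccl3 changed with 4 of 95 cells, from a highest level in batch scRNA to a highest level in batch 9_1. Against RAW_LPS only Ccl9 was called, with -3.53 ± 0.40 (SE, n = 3 batches; adjusted p = 0.00779 by edgeR), although Ccl3 had a larger fitted fold, -4.51 ± 1.15, and an adjusted p of 0.107. Interferon-stimulated genes summed to 443.5, 91.71 and 125.5 CPM, and to 154.7 CPM in batch scRNA without the cells of high Il1b. The median cell held 144.7, 61.01 and 112.2 CPM of that list, and 3 of 16 tested, Irf9, Mx2 and Cmpk2, were lower than in RAW_LPS, beside 0.951% of all genes.

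The 2 transgenes of the clone could be read directly. EGFP had counts in 95.8%, 81.2% and 95.7% of RAW_Mock cells and mCherry in 71.6% (68 of 95), 31.2% (5 of 16) and 69.6% (32 of 46). In IBA cells EGFP had counts in 0 of 93, 0 of 15 and 1 of 45, and mCherry in none. EGFP was not specific to the clone in this table, since ASPC_Pre and ASPC_Post cells of batch 9_1 held 497.2 and 569.8 CPM of it, above the level of RAW_Mock in that batch, where the highest cell held 308.8 CPM. The paper states that a subset of ASPCs was given a GFP reporter by lentivirus for tracking. Whether the whole ASPCs of batch 9_1 carried that reporter was not tested. The exact 95% binomial intervals of the mCherry shares were 61.4 to 80.4%, 11 to 58.7% and 54.2 to 82.3%. Thinning to 100000 counts gave 68.4%, 31.2% and 71.1%. Without lipopolysaccharide, therefore, reads of the reporter were found in most cells of batches scRNA and 9_1, at a batch median of 21.06 and 30.51 CPM against a median of 0 in batch 8_8. Summed levels of mCherry were 192.7, 16.86 and 55.61 CPM, and 39.06 CPM in batch scRNA without the cells of high Il1b, against 1233, 983.4 and 1844 CPM in RAW_LPS. That difference was called, with a log2 fold change of -4.68 ± 0.70 (SE, n = 3 batches; adjusted p = 0.0329 by edgeR). Across cells, mCherry and Tnf had correlations of log levels within batches of 0.362, 0.224 and 0.197 (95, 16 and 46 cells), beside medians of 0.07, 0.005 and 0.017 over all pairs of genes. Without the 4 cells of high Il1b and the shallow cell these were 0.212, 0.224 and 0.074.

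Variation between cells was measured as the squared coefficient of variation of CPM over the cells of a batch. A gene's excess was the log2 of that value over the trend of all genes with the mean, so that an excess of 1 means a squared coefficient of variation of 2 times the usual value at that level. Of 7632 genes with a mean of at least 10 CPM in every batch, 54 (0.708%) had an excess above 1 in all 3 batches. The lowest to pass was Tfrc at 1.00, and Slc40a1 fell just short at 0.995, both genes of iron transport. Across the 7632 genes, which are not independent, the rank correlation of the excess was 0.496 between batches scRNA and 8_8, 0.485 between scRNA and 9_1, and 0.339 between 8_8 and 9_1. Without the cells of high Il1b 51 genes passed, 50 of them shared, and Hmox1, Eea1, Cyth1 and Cst3 were lost. Without all 10 cells of many counts and few genes 62 passed, 47 of them shared, and Hmox1, Eea1, Kif18a, Cyth1, Rcan1, Map3k2 and Gmcl1 were lost. Each batch adds a hurdle, so that 96 to 126 genes passed when 1 batch was left out.

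Ranked by the lowest of its 3 batch values, Lyz2 came first. Its excess was 3.44, 3.52 and 4.31. Single cells held from 0 to 10410 CPM of Lyz2 in batch scRNA with a median of 1976, from 144.7 to 5873 in batch 8_8 with a median of 1696, and up to 29360 in batch 9_1 with a median of 2939. By contrast, Cd68 ranged from 238.8 to 1155 CPM in batch scRNA and had an excess of -0.63, -0.32 and -0.28. Ifitm3, a membrane gene of the interferon response, varied in a similar way in batch 9_1, with a median of 1426 and a highest cell of 15990 CPM.

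The other genes of the highest variation fell into several kinds. Top2a, the topoisomerase that untangles DNA in dividing cells, had a median of 735.7 CPM in batch 8_8 and reached 2556 CPM, with an excess of 2.43, 2.53 and 2.79. Mki67, the proliferation marker Ki-67, Ube2c, a ubiquitin-conjugating enzyme of mitosis, and Cdk1, the mitotic kinase, belong to the same kind. In all, 11 of the 54 genes were in the list of 54 genes of G2 and mitosis, namely Top2a, Ube2c, Mki67, Cdk1, Cenpe, Kif20b, Cenpf, Nusap1, Kif23, Tpx2 and Hmmr, and Rrm2, which makes deoxynucleotides, was in the list of S phase. Of all 7632 genes 0.708% passed.

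Of the list of macrophage identity, 3 of the 14 genes above the minimum level were among the 54. Gpnmb, a glycoprotein of lysosomes, ranged from 27.11 to 3744 CPM in batch scRNA, and from 328.35 CPM upwards without the cells of high Il1b, and had an excess of 1.77, 2.01 and 1.69. Plau, the urokinase, reached 7634 CPM in a cell of batch 9_1 and had an excess of 1.90, 1.63 and 2.37. Cd14, Tlr2, Cx3cr1, Cybb and Ccl9 also passed. Of the genes above the minimum level, 2 of 11 in the list of Toll-like receptors and none of 12 in the list of Fc receptors were among the 54, beside 0.708% of all genes. Hmox1, which degrades heme, passed with 2.67, 2.06 and 2.68, and its lowest excess fell to 0.39 without the cells of high Il1b, which carried most of it in batch scRNA (203.2 CPM with them and 89.01 CPM without). The nuclear RNA Malat1 (2.16, 2.14 and 2.02) and the chaperone of the endoplasmic reticulum Hspa5 (1.64, 1.40 and 1.37) were among the 20 highest as well.

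**Figure D2:**
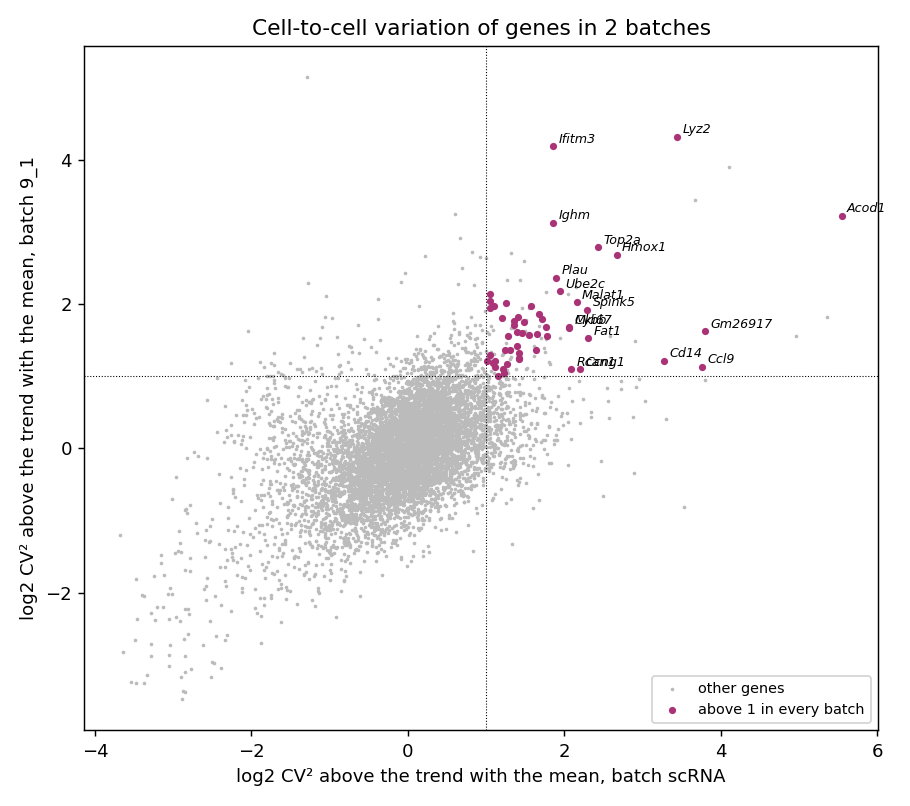
Each point is 1 of 7632 genes, placed by the log2 of its squared coefficient of variation over the trend in batch scRNA (horizontal) and in batch 9_1 (vertical), with dotted lines at 1. Purple points are the 54 genes above 1 in all 3 batches, and Lyz2 lies at 3.44 and 4.31.

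Of the 54 genes, 52 could be read in RAW_LPS and 38 in IBA cells. In RAW_LPS 27 of the 52 (51.9%) also passed the same rule, which are 34.6% of the 78 genes that passed there, where 1.13% of 6927 genes did so. In IBA 20 of the 38 (52.6%) passed, which are 23.3% of the 86 that passed in that line, beside 1.32% of 6502 genes.

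The sequence before the start was read for the high-variation genes in the list of G2 and mitosis. A pair of short motifs known from genes of mitosis was searched on either strand. These were the CHR element (searched as TTTGAA) and the CCAAT box (searched as CCAAT). The 120 bases before the start are shown for the 4 of these listed genes that held TTTGAA, in the gene's own direction. Both motifs are in capitals (TTCAAA and ATTGG are their reverse complements). Sequences are from RefSeq on GRCm38.p6. Top2a lies before its start at chr11:99024190-99024309 (minus strand), Ube2c at chr2:164769809-164769928 (plus), Mki67 at chr7:135716380-135716499 (minus) and Cdk1 at chr10:69352913-69353032 (minus).
Top2a: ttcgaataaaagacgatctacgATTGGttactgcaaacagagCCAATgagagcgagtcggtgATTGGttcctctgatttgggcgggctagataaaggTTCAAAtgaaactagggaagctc
Ube2c: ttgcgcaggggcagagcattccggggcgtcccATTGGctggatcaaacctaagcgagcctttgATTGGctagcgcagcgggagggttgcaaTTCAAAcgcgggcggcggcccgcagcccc
Mki67: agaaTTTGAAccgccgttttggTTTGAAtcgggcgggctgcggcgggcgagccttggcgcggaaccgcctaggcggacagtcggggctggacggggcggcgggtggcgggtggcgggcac
Cdk1: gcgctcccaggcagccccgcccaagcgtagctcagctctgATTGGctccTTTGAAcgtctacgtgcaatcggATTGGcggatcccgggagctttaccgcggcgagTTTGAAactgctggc

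TTTGAA began 23 bases before the start in Top2a, 29 in Ube2c, 98 and again further from it in Mki67, and 71 and 15 in Cdk1. Top2a held 3 CCAAT boxes, Ube2c and Cdk1 2 each and Mki67 none. Of the 11 high-variation genes in the list of G2 and mitosis 10 had a RefSeq promoter. Of these, 4 (40%) held TTTGAA, 7 (70%) CCAAT and 3 (30%) both in these 120 bases, while Kif20b and Nusap1 held neither. Of all 27025 promoters 7.24% held TTTGAA, 22.1% CCAAT and 1.55% both. Among the 6123 of genes with at least 10 CPM in every batch the shares were 4.07%, 26.3% and 1.52%. Of 33 promoters of high-variation genes outside the list, 3 (9.09%) held TTTGAA, 14 (42.4%) CCAAT and 2 (6.06%) both. High-variation genes outside the list were not free of genes that went with listed ones across cells. Mean correlations over the batches were 0.586 for Plk1 with Nusap1 and 0.532 for Fam83d with Ube2c. In the whole list of G2 and mitosis 14 of 47 (29.8%) held TTTGAA, 34 of 47 (72.3%) CCAAT and 12 (25.5%) both. A match is a run of letters, and binding to it was not measured here.

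Which genes moved together was read from correlations of log levels between cells, computed within each batch so that batches did not create them. Over 29119896 pairs of genes, the lowest of the 3 batch values exceeded 0.285 in 1 pair of 1000. These values describe 95, 16 and 46 cells that share depth and library preparation within a batch. Ube2c and the cyclin gene Ccnb1 had 0.609, 0.606 and 0.795, Top2a and the mitotic kinase gene Aurkb 0.587, 0.703 and 0.767, and Top2a and Cdk1 0.630, 0.759 and 0.576. Rrm2 went with the replication gene Cdc45 (0.520, 0.630 and 0.571) but not with Ube2c (-0.011, -0.236 and -0.210). With other mitotic genes Rrm2 did share a direction, as its mean correlation over the batches was 0.447 with Cdk1 and 0.343 with Top2a.

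Lyz2 went with Lgals3, a galectin of phagocytes (0.453, 0.726 and 0.396), and the heat map of the 54 genes placed Cd14, Ifitm3, Spink5 and Acod1 beside them. Lyz2 and Csf1r had no common direction (0.238, -0.031 and -0.215), while Csf1r and Cd68 had 0.038, -0.210 and -0.585, and -0.108 in batch scRNA without the cells of many counts and few genes. The median correlation among genes of macrophage identity was 0.038, 0.013 and 0.053, close to that of all pairs (0.07, 0.005 and 0.017), whereas it was 0.322, 0.220 and 0.281 in the list of G2 and mitosis and 0.258, 0.360 and 0.351 in glycolysis. The identity genes thus did not rise and fall together to the degree that mitotic and glycolytic genes did.

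Other pairs, picked after their values were seen, also went together, and shared function was not tested. Gpnmb went with the cathepsin gene Ctsd (0.489, 0.612 and 0.538, and 0.310 in batch scRNA without the cells of many counts and few genes). Hspa5 went with Hsp90b1, another chaperone of the endoplasmic reticulum (0.484, 0.419 and 0.310), and with Xbp1, a transcription factor of the unfolded protein response (0.336, 0.405 and 0.624). Cdkn1a and Ccng1, both targets of p53, had 0.321, 0.422 and 0.294. The chemokine gene Ccl9 went with Spp1, which encodes osteopontin (0.496, 0.469 and 0.523). EGFP, the tag on relA, went with Acod1, the enzyme that makes itaconate (0.535, 0.473 and 0.439), and with Spink5, a protease inhibitor (0.542, 0.402 and 0.389). Gm26917 went with the ribosomal RNA gene n-R5-8s1 (0.717, 0.930 and 0.285), and its level spanned 1906 to 69360 CPM over the cells of batch scRNA.

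**Figure D3:**
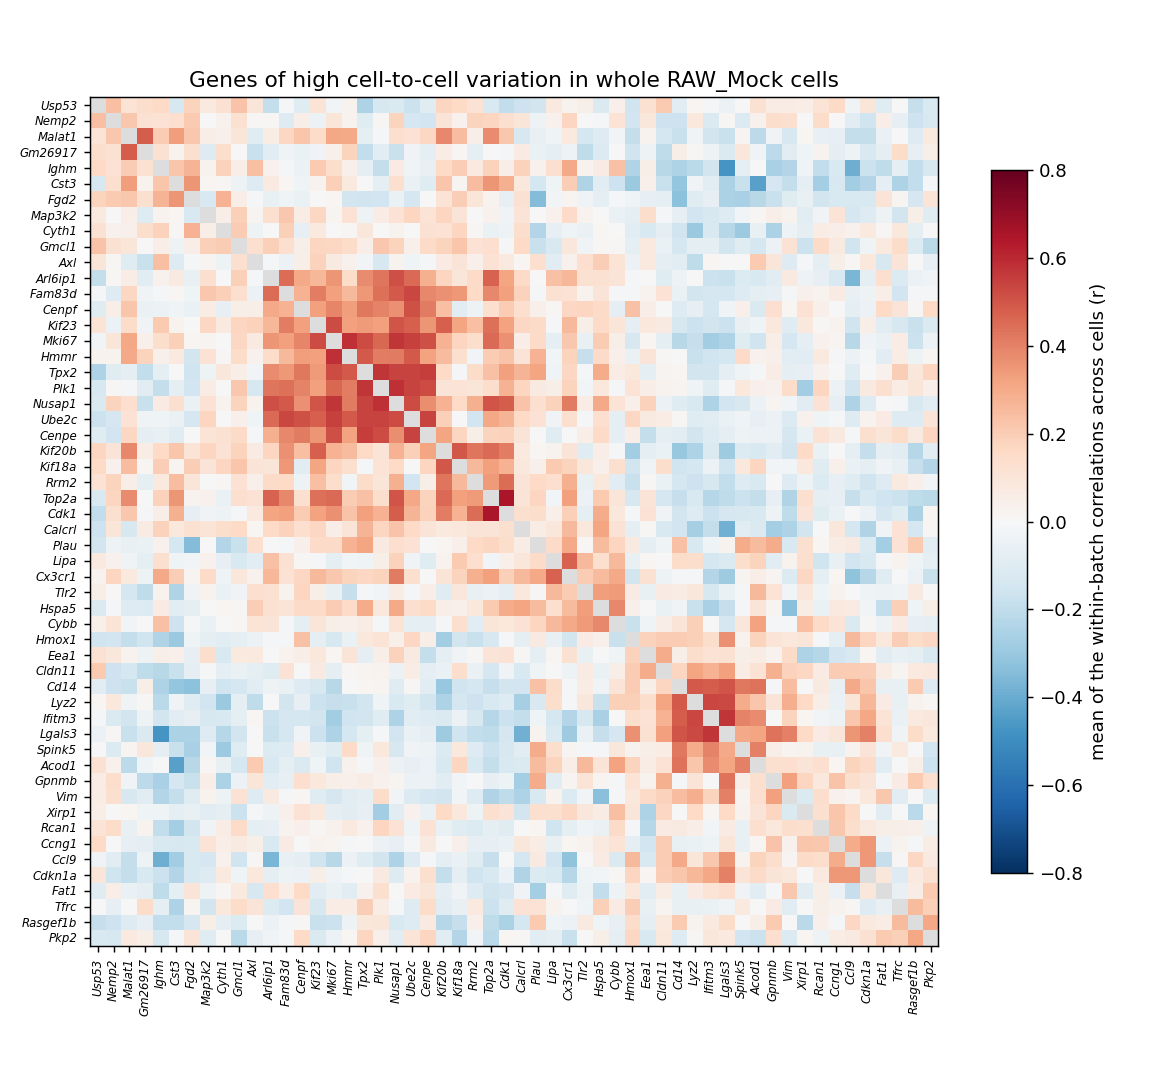
The heat map gives, for the 54 genes of high variation, the mean over the 3 batches of the correlation of log levels between cells, from blue (negative) to red (positive), with genes ordered by similarity. The mitotic genes form 1 block, and Cd14, Lyz2, Ifitm3, Lgals3, Spink5 and Acod1 another.

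All of the cells carried some transcripts of the cell cycle lists. The list of 43 S phase genes had a median sum of 7076, 7093 and 6408 CPM per cell and the list of G2 and mitosis one of 10040, 12620 and 8586 CPM. The latter ranged from 2286 to 20520 CPM in batch scRNA, 5415 to 21770 in batch 8_8 and 3541 to 21550 in batch 9_1, so that all cells were above the 1000 CPM set as a threshold, which did not divide them. A threshold of 10000 CPM, chosen after the values were seen, was passed by 50.5% of the cells of batch scRNA (exact 95% interval 40.1 to 60.9%), 56.2% of batch 8_8 (29.9 to 80.2%) and 30.4% of batch 9_1 (17.7 to 45.8%). The sums of the lists had correlations across cells of -0.005, -0.425 and -0.361. The lowest cell, 1 of the 4 of high Il1b, held 1601 CPM of the S phase list and the next 2184 CPM, so that no cell was without counts on either list. A list sum does not show that each of its genes was present. In batch scRNA 1 cell with 3535.7 CPM of the G2 and mitosis list had no count of Ube2c, Cdk1, Cenpe, Kif20b, Cenpf or Nusap1. Whether every cell was cycling was not tested.

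Against the other whole-cell states 27 of the 43 S phase genes and 22 of the 54 genes of G2 and mitosis were higher, and none was lower, beside 12.3% and 12.1% of all genes, with median log2 fold changes of 1.35 and 1.15 beside -0.09 for all genes. Of 17 cyclins and inhibitors tested, Ccnb2 was higher and Ccnd2 and Cdkn1a were lower, beside 12.3% and 12.1% of all genes. Against RAW_LPS, none of the G2 and mitosis genes was called, beside 1.28% of all genes.

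**Figure D4:**
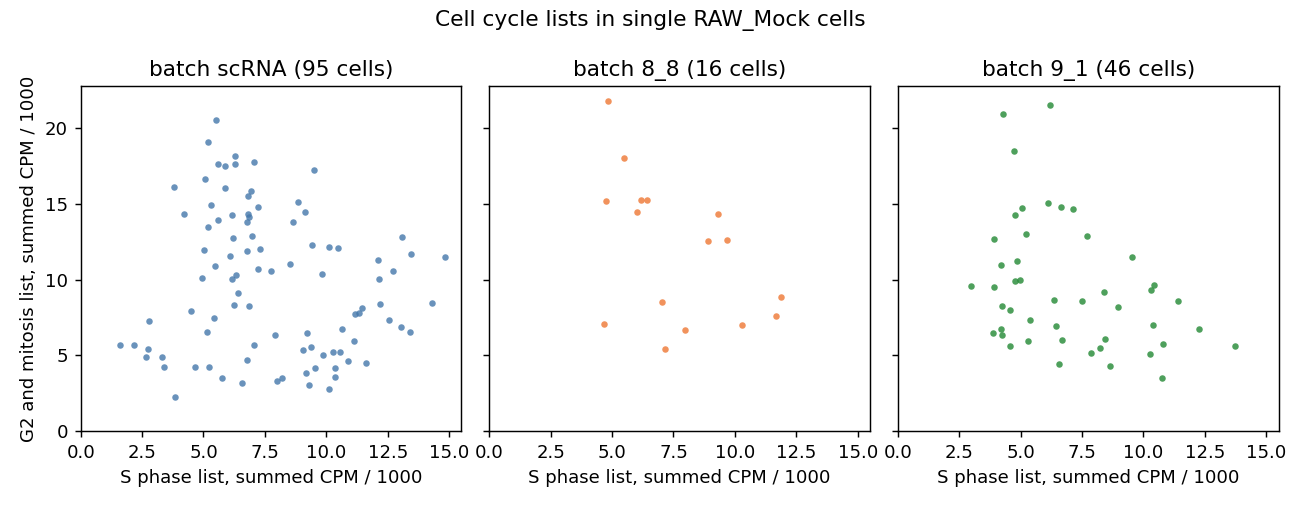
Each point is 1 RAW_Mock cell, placed by the summed level of 43 S phase genes (horizontal) and of 54 genes of G2 and mitosis (vertical), both as CPM divided by 1000, with a panel per batch. Cells spread along both axes, and none has a sum of 0 on either.

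Profiles of cells were compared over the 7632 genes with a mean of at least 10 CPM in every RAW_Mock batch. Cells of a batch had a median correlation of log levels of 0.469 in batch scRNA, 0.420 in batch 8_8 and 0.517 in batch 9_1. Cells of different batches reached 0.409 (scRNA and 8_8), 0.466 (scRNA and 9_1) and 0.440 (8_8 and 9_1). A RAW_Mock cell and a RAW_LPS cell of the same batch had 0.434, 0.407 and 0.495, and a RAW_Mock cell and an IBA cell 0.345, 0.340 and 0.374. Cells of RAW_LPS (0.526, 0.452 and 0.557) and of IBA (0.662, 0.596 and 0.618) had higher medians among themselves than RAW_Mock cells in every batch. The genes were chosen by their level in RAW_Mock, so that these medians do not rank the states by how alike their cells are. Cells of batches scRNA and 9_1 thus resembled each other about as much as cells within batch scRNA. Pairs with a cell of batch 8_8 had the lower values. Batch 8_8 also had the lowest median depth. The values given here are from cells at full depth, and no cause of the lower values is given.

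Principal components of the RAW_Mock cells took small shares of the variance. The first held 7.05% of it and set Lbr, Dhcr7, Gatm, Stard7 and Rad21 against Esd, Sod2, Lgals3, B2m and Fth1. Its score had a correlation of -0.377 with the log10 of the kept counts over all cells, and 8.0% of its variance lay between batches. All 10 cells of many counts and few genes lay at its low end, with scores of -35.04 to -29.86 for the 4 of high Il1b and -34.27 to -22.16 for the other 6. The remaining cells of batch scRNA had scores of -7.13 or more, and the lowest cells of batches 8_8 and 9_1 had -20.3 and -26.43. Without the 10 cells the first component held 5.7% and was nearly the same axis, with an absolute correlation of 0.99 with the first component of all cells and of 0.148 with the log10 of the kept counts. The second held 2.89% and set Cst3, Mki67, Hist1h1b, Smc4 and Hist1h1e, most of them genes of dividing cells, against the inflammatory genes Ccl3 and Tnf and Spp1, Cd44 and Bcl2l1, with 15.8% of its variance between batches. The 4 cells of high Il1b held its lowest scores, -21.59 to -20.54, the next cell of their batch being at -15.2. Without them the negative side of this component was led by Adam8, Lmna, Spp1, Ctsl and Gtf2h1 and the positive side by Kif11, Aurkb, Top2a, Spc25 and Mki67.

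Across the 7632 genes with a mean of at least 10 CPM in every batch, batch sums were compared by Pearson correlations of log2 CPM. These were 0.859 (scRNA and 8_8), 0.900 (scRNA and 9_1) and 0.890 (8_8 and 9_1). Such a correlation over genes of widely different levels does not show that most genes were alike between batches. Batch scRNA was compared with batches 8_8 and 9_1 in the sums of RAW_Mock, RAW_LPS and IBA, with a term for the state, so that its calls concern all 3 states. Batch scRNA is a single batch, so that the states stand in for its replicates and p-values measure the spread between these sums, not between batches of its kind. Of 12217 genes 124 (1.01%) were higher in batch scRNA and 2.45% lower (3.46% in either direction), and the median log2 fold change was 0.09. No gene was called by edgeR without batch 9_1, without RAW_LPS or without RAW_Mock, where 2258, 1661 and 1750 genes had an unadjusted p under 0.05. DESeq2 on all of these sums called 5.58% of them. Without the cells of many counts and few genes edgeR called 3.07%. The labels give a spike-in dilution of 1e-08 for batch scRNA and of 1e-07 for the others, so that batch and dilution cannot be told apart. The median depth of batch 8_8 was close to that of batch scRNA.

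Of 16 iron and redox genes 3 were lower in batch scRNA and none was higher, beside 2.45% and 1.01% of all genes. Fth1 was at 5279 CPM in RAW_Mock of batch scRNA against 15670 and 15250 CPM in batches 8_8 and 9_1, and the order was the same in RAW_LPS (4490, 15300 and 12620 CPM). Its log2 difference over the 3 states was -1.47 ± 0.21 (SE, n = 3 states; adjusted p = 0.0119 by edgeR). The ferritin light chain gene Ftl1 was at 2027 and 2016 CPM in batches 8_8 and 9_1 and lower by 1.24 on the log2 scale in batch scRNA, and Gpx1, which removes peroxides, at 218.8, 727.2 and 650.9 CPM. Of the 24 genes of the actin and adhesion list, Lgals1, S100a4, S100a6 and S100a10 were lower as well, with log2 differences of -1.57, -1.82, -1.82 and -2.09. For Fth1, Ftl1, Gpx1 and Lgals1 the levels of batches 8_8 and 9_1 lay together, away from batch scRNA.

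Of 15 interferon-stimulated genes tested 3 were higher in batch scRNA, beside 1.01% of all genes. Genes higher there included the interferon-related genes Irf9 (39.68, 7.39 and 21.56 CPM), Bst2 (47.02, 10.63 and 25.75 CPM) and Mx2, and the stress genes Trib3 (19.90, 3.46 and 7.67 CPM) and Ddit4 (5.48, 1.16 and 0.78 CPM). Part of this came from the cells of high Il1b, without which Irf9 was at 28.08, Bst2 at 34.06 and Trib3 at 10.95 CPM in batch scRNA. The 10 genes of the largest rise were Leng9, Dlk1, Map3k6, Ifi44, Mx2, Calml4, Serpinh1, Pdp1, Aspn and Slc9a9. Some of them were carried by IBA cells, such as the collagen chaperone Serpinh1, which was at 0.17, 0 and 0 CPM in RAW_Mock and at 1065, 104.4 and 89.90 CPM in IBA. Ifi44 was at 137.5, 4.39 and 8.45 CPM in RAW_Mock, and at 22.52 CPM in batch scRNA without the cells of high Il1b.

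Of the 10 largest falls, Gm10358, Rps12-ps19, Rpl31-ps9, Ctf2, Gm10689, Gm10263, Rps27rt, Gm11518 and Gm3362 carried a symbol and 1 did not. Gm10358 was at 0.44, 7.62 and 18.98 CPM in RAW_Mock, and Rps27rt at 2.36, 10.40 and 46.80 CPM. By biotype 53 pseudogenes (9.41% of those tested) were lower in batch scRNA and 1 was higher, while 2.11% of 11030 protein coding genes were lower. Pseudogenes share reads with their parent genes, so that their levels are uncertain.

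**Figure D5:**
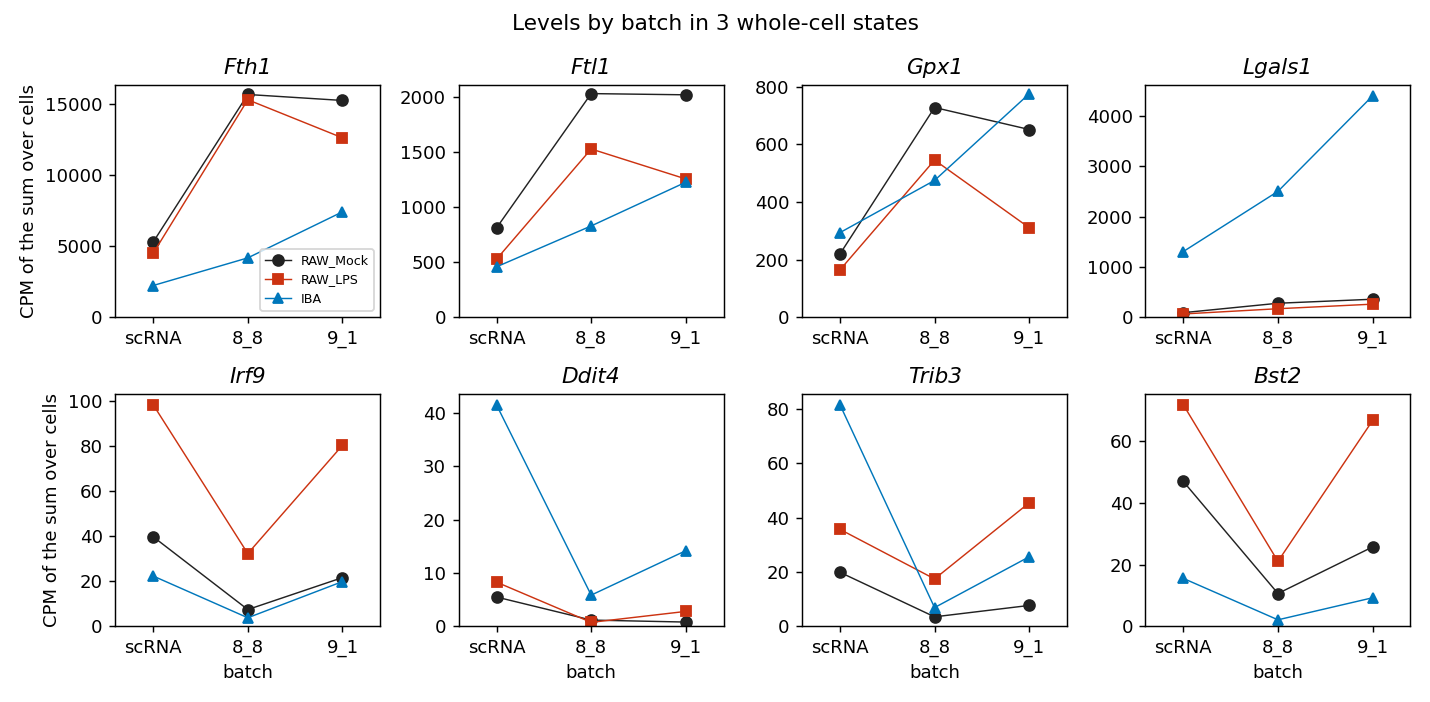
The panels give the CPM of Fth1, Ftl1, Gpx1, Lgals1, Irf9, Ddit4, Trib3 and Bst2 by batch, with 1 point for the summed counts of RAW_Mock, RAW_LPS and IBA each. Fth1 rises from 5279 CPM in batch scRNA to 15670 and 15250 CPM in RAW_Mock, and RAW_LPS follows the same course.

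The 4 cells of high Il1b in batch scRNA, labelled as mock-treated, are given here as an aside. They held 1954, 3544, 1592 and 2812 CPM of Il1b, while all other cells but 3 had no count of it. Their Tnf was between 1432 and 1917 CPM and their Ccl3 between 6989 and 8049 CPM, against medians of 103.4 and 182.5 CPM in the other 91 cells of the batch. The medians of RAW_LPS cells of that batch were 1739 CPM of Tnf and 7377 CPM of Ccl3. The 4 cells also held 1222 to 1653 CPM of mCherry and 8950 to 11830 CPM of Acod1, against medians of 1201 and 4487 CPM in RAW_LPS. In Tnf, Ccl3 and mCherry they thus lay near the RAW_LPS median. The RAW_LPS median of Il1b was 72.73 CPM. The 4 cells were picked by Il1b over 1000 CPM, so that their higher level of it was fixed beforehand. Their totals, 841416 to 1348804 counts, were high for the batch and their genes, 5366 to 5771, few, as in the 6 other cells of this kind. They were also the 4 cells of lowest Laptm5 in the batch (143.8 to 295.9 CPM), and none had a count of Il21r. How they came to hold these levels was not tested.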

How the data were processed

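The authors sorted live single cells into plates, made Smart-seq2 libraries and deposited a table of counts per gene and cell. Per the methods and the submitters' processing notes, bcl2fastq 2.19.1 was used for demultiplexing, read 1 was aligned to GRCm38 with STAR 2.6.1c, and HTSeq counted uniquely mapped reads without regard to strand, so that reads of overlapping or antisense genes cannot be told apart. These deposited counts carry no molecular identifiers and had passed the authors' filters on cells. Of the columns, 458 of other libraries were not used. No doublet caller was run, since singlets had been sorted. Gene symbols were found for 30322 of 30452 features, 128 had none and 2 were the transgenes.

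Levels here are without 20 negative-control genes and 89 genes of ribosomal proteins, over 30343 others. Counts were summed per state and batch (12 sums of at least 3 cells). Genes with 2 counts in 15% of the cells of a state entered edgeR 4.0.16 (quasi-likelihood test, TMM, filterByExpr with a minimum count of 2, R 4.3.3) with state and batch as terms, with calls at an adjusted p under 0.05 and a log2 fold change beyond 1. The labels give the shared batch, which pairs the states, and deviations of RAW_Mock and RAW_LPS sums from their means had correlations of 0.431, 0.249 and 0.349. DESeq2 1.42.0 and Seurat 5.3.0 gave alternatives, and cell values were computed with Python 3.11.15, pandas 2.3.3, numpy 2.4.6 and scipy 1.17.1. Figures were drawn with matplotlib 3.10.9. The scripts were tested on simulated data. Positions are from GENCODE on GRCm38.

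The cells and gene lists were chosen with earlier results of these data known. Named were list members, the 20 highest genes, the 20 of highest variation, the transgenes, Il1b, the 5 strongest loadings per side of 2 principal components, and the 10 called genes of the largest rise and fall per comparison. Genes outside this rule, such as partners in a correlation and Eea1, were named after their values were seen. A batch cannot be told apart from its dilution of spike-in. Some members of the lists are not reported here.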

Additional observations from a re-analysis of the deposited data

How the results depend on the processing

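Of the values of named genes under the alternatives, 69.2% stayed on the same side of the threshold, 30.7% lost their call and 1 reversed, the log2 difference of Slc9a9 between batches, which was -0.72 with 15 cells per sum. Calls are given below as a percent of the genes tested with all sums. Against the other states, 12.7% to 25% were called when a batch was left out. Batch is a block in these fits, and without that replicate block 22.2% were called against the other states and 0.258% against RAW_LPS. Against RAW_LPS, DESeq2 called 5.26%, edgeR's version 4 fit 3.44%, sums of 15 cells 0.376% and fits without a batch 0 to 0.236%. In alternatives chosen after seeing the data, 2.23% were called without the 4 cells of high Il1b and 2.16% without the 18 cells of many counts and few genes. Between batches, DESeq2 called 5.58%, edgeR's version 4 fit 5.99% and sums of 15 cells 1.98%. Without the state term 0.0327% were called, without batch 8_8 4.76%, and without batch 9_1, RAW_LPS or RAW_Mock 0. The cause of these changes was not tested, beyond the loss of sums.

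High variation was found for 96 to 126 genes when a batch was left out and for 13 by Seurat's standardized variance above 2, of which 10 were shared. After thinning to 100000 counts 40 genes passed, of which 37 were shared with the 54. Thinning to 100000 counts lowered the median number of genes to 6437 (8_8), 7250 (9_1) and 7046.5 (all), and a minimum of 2 counts to 6516 (8_8) and 7994.5 (9_1). On the 2000 most variable genes the correlation between cells was 0.384 within 8_8, 0.404 between 8_8 and 9_1 and 0.472 within 9_1. The share of cells above 5000 CPM of G2 and mitosis genes was 80% in batch scRNA and 86.0% in all, and above 10000 CPM it was 50.5%, 56.2%, 30.4% and 45.2% (scRNA, 8_8, 9_1, all), both thresholds chosen after seeing the data. Depth limits what can be said of genes with few counts, and 16 cells limit batch 8_8.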
